A study of Mus musculus with 12 samples.

Results

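Genes of cholesterol and fatty acid synthesis, of the SREBP system that controls them, and of sterol export and transport were followed in mouse embryonic fibroblasts that lacked Gdap1 or were wild type. A list of 39 genes was used, and a gene was measured where at least 1 probe set carried its symbol alone in the table that links probe sets to genes. The probe set with the highest mean over the 12 arrays stood for the gene. That gave values for 34 of the 39 genes, among 22180 genes tested on the arrays. Idi1 and Scd2 shared their probe set with other symbols and were given no value, and Acat2, Nr1h2 and Soat1 were not analysed here.

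The 12 arrays formed 4 groups of 3: Gdap1-null cells (KO) at day 4 of reprogramming, KO cells at day 0, before reprogramming, wild-type cells (WT) at day 4, and WT cells at day 0. GDAP1 sits in the outer membrane of mitochondria and has a role in their fission. Reprogramming means the forced expression of Oct4 (Pou5f1), Sox2, Klf4 and Myc (OSKM), which can turn fibroblasts into pluripotent stem cells. All cells grew in DMEM with 10% FBS, a serum that itself carries cholesterol and fatty acids. The treatment label is the same for every array and names an overnight transduction, mock or OSKM, with further growth afterwards, without saying which of these applied to the day 0 cells. The sources used here do not give the null allele's construction, the strain or the age of the embryos.

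Cholesterol is built from acetyl-CoA through mevalonate, farnesyl diphosphate, squalene and lanosterol. When sterols are scarce in the endoplasmic reticulum, SCAP escorts the SREBP transcription factors to the Golgi, where they are cut and freed to switch on the genes of this route and of fatty acid synthesis. When sterols are plentiful, INSIG proteins hold SCAP back, and oxysterols activate the LXR receptors, which switch on sterol export through genes such as Abca1.

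Each value is a log2 level of a probe set, so a difference of 1 is a 2-fold change. The tests compare levels between arrays and never between genes. Percentiles of all genes are given only to show whether a probe set was dim or bright. Gdap1 itself checked nothing about the genotype: the probe set was dim (14.1 percentile of all genes), with levels of 3.21, 2.98 and 3.28 in KO cells at day 4, 3.10, 2.97 and 3.28 in KO cells at day 0, 2.82, 3.02 and 3.15 in WT cells at day 4, and 3.30, 3.24 and 3.04 in WT cells at day 0. Between the days the probe set of Klf4 was higher at day 4, by 3.28 ± 0.09 in KO cells and 2.94 ± 0.09 in WT cells (log2, SE, n = 3 per group), and that of Myc was lower, with differences of -0.94 ± 0.08 in KO cells and -1.02 ± 0.08 in WT cells. Pou5f1 gave 0.38 ± 0.09 in KO cells (adjusted p = 0.00541) and 0.10 ± 0.09 in WT cells, where it did not reach an adjusted p under 0.05 (limma, adjusted p = 0.516). Sox2 gave -0.10 ± 0.12 in KO cells and 0.19 ± 0.12 in WT cells and passed in neither. Whether these probe sets read the transduced sequences is not given in the sources used here. Fibroblast markers were high, with 11 of 12 at or above the 90.1 percentile of all genes and the other at the 57.4 percentile. WT day 4 array 1 stood apart, with the lowest mean correlation with its own group (0.987) and the lowest mean level of that group over the squalene to cholesterol genes. Nothing in the labels tells whether replicate arrays are separate cultures or embryos, so the p-values cover only the spread seen between them, which may be technical. Batches are not named, and batch and group therefore cannot be told apart. With 3 arrays per group the precision is limited.

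Most of the measured genes were lower at day 4 than at day 0. In KO cells 25 of 34 fell and 1 rose at a Benjamini-Hochberg adjusted p under 0.05, where 16.9% of all genes fell and 13.8% rose. In WT cells 23 of 34 fell and 1 rose, where 11.7% of all genes fell and 11.1% rose. The median change of the 34 genes was -0.79 in KO cells and -0.50 in WT cells, against -0.01 over all genes in each genotype. The same 21 genes fell in both genotypes and Abca1 rose in both, and the share of all genes called in both was not computed. A further 4 passed as lower in KO cells only (Scap, Acaca, Elovl6 and Fads1) and 2 in WT cells only (Dhcr7 and Npc1), a split that does not itself test whether the genotypes differ.

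The first part of the route, which turns acetyl-CoA into the isoprenoid farnesyl diphosphate, was lower at day 4 in all 5 genes measured in KO cells and in all 5 in WT cells. Hmgcs1, the synthase that makes HMG-CoA, had levels of 8.75, 8.78 and 8.85 in KO cells at day 4, against 9.80, 9.82 and 9.84 in KO cells at day 0. In WT cells it had 8.63, 9.15 and 9.11 at day 4, against 9.92, 9.95 and 9.99 at day 0. The days did not overlap in either genotype, and Hmgcs1 fell by 1.02 ± 0.11 on the log2 scale in KO cells (SE, n = 3 per group, 2.03-fold, adjusted p = 2.72e-05) and by 0.99 ± 0.11 in WT cells (1.99-fold, adjusted p = 4.39e-05).

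Mvk, mevalonate kinase, had levels of 6.88, 6.97 and 6.89 in KO cells at day 4, against 8.24, 8.19 and 8.07 at day 0. WT cells had 7.16, 7.58 and 7.46 at day 4, against 8.46, 8.41 and 8.38 at day 0. Every KO day 4 array lay below every WT day 4 array, and the change was -1.25 ± 0.10 in KO cells and -1.02 ± 0.10 in WT cells (adjusted p = 2.16e-06 and 1.25e-05). Fdps, the synthase that makes farnesyl diphosphate, had 8.94, 9.00 and 9.02 in KO cells at day 4, against 10.41, 10.36 and 10.46 at day 0. In WT cells Fdps had 8.97, 9.53 and 9.36 at day 4, against 10.58, 10.52 and 10.45 at day 0. It fell by 1.43 ± 0.12 in KO cells (adjusted p = 2.45e-06) and by 1.23 ± 0.12 in WT cells (adjusted p = 9.36e-06), and WT day 4 array 1 lay within the KO day 4 range. Pmvk and Mvd, the kinase and the decarboxylase that act between them, fell by 0.59 and 0.85 in KO cells and by 0.45 and 0.63 in WT cells.

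From squalene to cholesterol, 9 of 11 genes fell in KO cells and 10 of 11 in WT cells. The median change of the 11 was -0.92 in KO cells and -0.82 in WT cells. Lss, the lanosterol synthase that closes the sterol rings, had the largest fall of the 34 genes in both genotypes. Its levels were 6.44, 6.51 and 6.61 in KO cells at day 4, against 8.36, 8.35 and 8.30 at day 0. In WT cells they were 6.57, 7.32 and 7.12 at day 4, against 8.69, 8.53 and 8.66 at day 0. Lss fell by 1.82 ± 0.15 in KO cells (3.52-fold, adjusted p = 2.32e-06) and by 1.63 ± 0.15 in WT cells (3.09-fold, adjusted p = 6.54e-06), with no overlap between days.

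Cyp51, the lanosterol demethylase, had the largest error of the sterol synthesis genes. It had 7.06, 7.24 and 6.77 in KO cells at day 4, against 8.34, 8.39 and 8.42 at day 0. WT cells had 6.63, 7.67 and 7.39 at day 4, against 8.56, 8.54 and 8.80 at day 0, so the lowest of all 12 arrays was WT day 4 array 1. The change was -1.36 ± 0.21 in KO cells (adjusted p = 0.000269) and -1.41 ± 0.21 in WT cells (adjusted p = 0.000289). Hsd17b7, a sterol ketone reductase, and Msmo1, the oxygenase that starts removal of methyl groups from sterols, had the more negative change in WT cells. Hsd17b7 had 7.58, 7.68 and 7.85 in KO cells at day 4, against 8.96, 8.89 and 8.93 at day 0, and 7.22, 7.69 and 7.56 in WT cells at day 4, against 9.07, 9.08 and 8.95 at day 0. It fell by 1.22 ± 0.11 in KO cells and by 1.54 ± 0.11 in WT cells (adjusted p = 7.04e-06 and 1.48e-06), and Msmo1 fell by 1.20 and 1.39 (both n = 3 per group). The KO and WT arrays of day 4 overlapped for both genes.

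Nsdhl, the sterol dehydrogenase that acts after Msmo1, had 8.65, 8.67 and 8.62 in KO cells at day 4, against 9.92, 9.92 and 10.08 at day 0. WT cells had 9.03, 9.49 and 9.34 at day 4, against 10.39, 10.40 and 10.30 at day 0. KO arrays lay below WT arrays on each day, and the fall at day 4 was 1.33 ± 0.10 in KO cells and 1.07 ± 0.10 in WT cells (adjusted p = 1.93e-06 and 1.16e-05). Squalene synthase Fdft1, squalene epoxidase Sqle and the sterol desaturase Sc5d fell by 0.89, 0.82 and 0.92 in KO cells and by 0.76, 0.82 and 0.81 in WT cells. Tm7sf2, a sterol reductase, fell by 0.75 ± 0.13 in KO cells (adjusted p = 0.000771) and by 0.41 ± 0.13 in WT cells (adjusted p = 0.04). The WT call for Tm7sf2 was lost when any of 7 single arrays was left out: WT day 0 arrays 1, 2 and 3, WT day 4 arrays 1 and 3, KO day 0 array 3 or KO day 4 array 1 (highest adjusted p = 0.138). Ebp, a sterol isomerase, did not pass (-0.31 ± 0.11 in KO cells and -0.13 ± 0.11 in WT cells, adjusted p = 0.0563 and 0.48). Dhcr7, the last reductase of the route, gave -0.18 ± 0.10 in KO cells (adjusted p = 0.221) and fell by 0.48 ± 0.10 in WT cells (adjusted p = 0.0043). Its levels were 7.30, 7.16 and 7.42 in KO cells at day 4, against 7.46, 7.51 and 7.46 at day 0, and 7.32, 7.73 and 7.56 in WT cells at day 4, against 7.93, 8.03 and 8.09 at day 0.

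**Figure D1:**
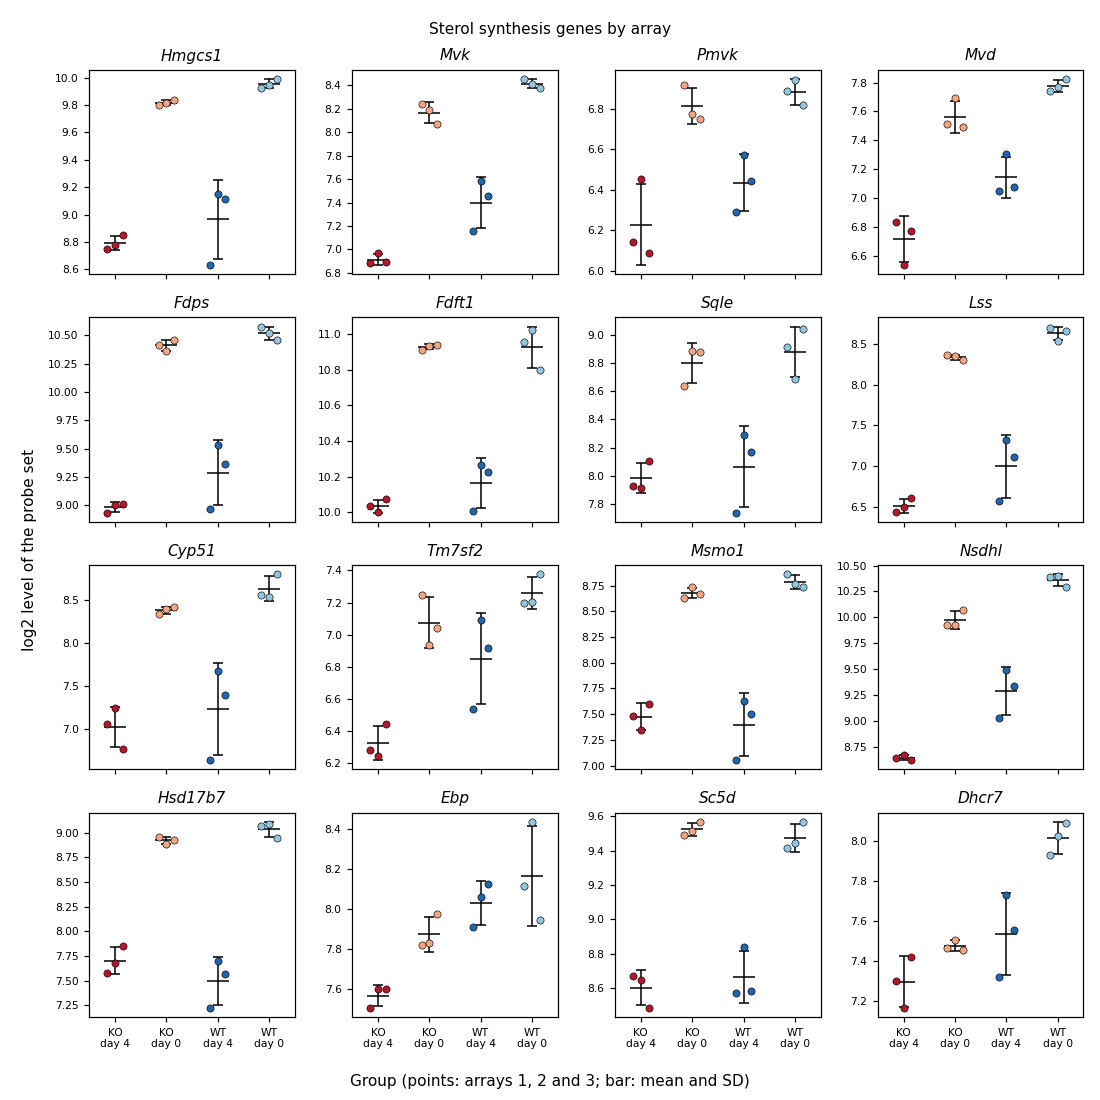
Log2 level of the probe set (y axis, a separate scale for each gene) of 16 genes of the sterol route in the 12 arrays, with KO day 4, KO day 0, WT day 4 and WT day 0 along the x axis. Points are arrays 1, 2 and 3 of a group and bars the mean and SD, and the lowest WT day 4 point is array 1 for Hmgcs1 (8.63, against 9.15 and 9.11), Lss (6.57, against 7.32 and 7.12) and Cyp51 (6.63, against 7.67 and 7.39).

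Because the sterol genes fell together, their promoters were searched for 4 motifs on both strands: the core of the sterol regulatory element bound by SREBPs, TCACNCCAC, the E-box TCACGTGA that SREBP-1 can also bind, the box CCAAT bound by NF-Y, which reads ATTGG on the opposite strand, and GGGCGG, a box bound by Sp1. The windows came from RefSeq (GRCm38.p6) and ran from 250 bases before to 50 bases after a gene's start. Windows existed for 30 of the 39 genes, 26 of them measured, and a gene with several windows was given the highest count of any of them. There was no entry for Fdft1, Abcg1, Fdps, Scd2, Scd1, Stard4, Sqle, Fads1 and Npc1. At least 1 CCAAT box was found in 22 of 30 genes (73.3%), against 42.3% of 17491 protein-coding genes and 41.1% of all 27025 genes with a window. Among the 15 sterol synthesis genes with a window, 14 had at least 1 (93.3%) and 9 had at least 2 (60%, against 14.6% of protein-coding genes). Of the 5 fatty acid genes with a window, 2 had at least 1 (40%), Fasn and Acly, and Elovl6, Acaca and Fads2 had 0. GGGCGG was found in 24 of 30 (80%, against 49.2% of protein-coding genes). Its counts equalled those of CCAAT, with 14 of 15 sterol synthesis genes (93.3%) and 2 of 5 fatty acid genes (40%), but the genes differed. The fatty acid genes with GGGCGG were Acly and Fads2, and Fasn had 0. The sterol synthesis gene without GGGCGG was Pmvk, and the one without CCAAT was Acat2. The sterol regulatory element core was found in 1 of 30, Hmgcs1, against 1.41% of protein-coding genes, and the E-box in 0 of 30, against 1.41%. A match is a description of these letters and not a site, and no match says only that these letters are not in this window. The 250 bases before the start are shown 5′ to 3′ on the strand of the gene, with the CCAAT boxes of either strand and the sterol element core in capitals. Hmgcs1 (chr13:119690101-119690350, plus strand) is shown for the sterol element core, which begins 137 bases before the start, and for its 3 CCAAT boxes before the start. Mvk (chr5:114444019-114444268, plus strand) has 5 CCAAT boxes, the most of the 30 genes, and Hsd17b7 (chr1:169969206-169969455, minus strand) has 3.
Hmgcs1: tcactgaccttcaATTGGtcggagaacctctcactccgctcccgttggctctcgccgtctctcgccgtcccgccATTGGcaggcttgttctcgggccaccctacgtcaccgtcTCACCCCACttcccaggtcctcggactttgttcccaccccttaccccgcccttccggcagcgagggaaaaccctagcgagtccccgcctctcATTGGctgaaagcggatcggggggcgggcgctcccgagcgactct
Mvk: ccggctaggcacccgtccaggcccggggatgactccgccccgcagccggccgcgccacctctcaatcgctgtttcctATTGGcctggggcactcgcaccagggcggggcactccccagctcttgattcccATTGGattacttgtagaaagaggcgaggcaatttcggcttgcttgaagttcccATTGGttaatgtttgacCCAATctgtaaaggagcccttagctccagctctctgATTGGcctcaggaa
Hsd17b7: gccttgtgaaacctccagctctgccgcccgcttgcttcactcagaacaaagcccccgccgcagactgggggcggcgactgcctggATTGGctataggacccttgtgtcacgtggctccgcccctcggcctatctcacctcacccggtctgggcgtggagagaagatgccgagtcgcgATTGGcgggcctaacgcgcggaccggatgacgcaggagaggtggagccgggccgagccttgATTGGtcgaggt
Fasn (chr11:120824548-120824797, minus strand) and Abca1 (chr4:53159896-53160145, minus strand) are shown as a fatty acid gene that fell and as the gene that rose. Fasn has 3 CCAAT boxes, of which the pair that begins 62 and 59 bases before the start overlaps, and Abca1 has 0. Boxes were also present in genes whose day 4 change did not pass with all arrays: Insig2 had 3, and Ebp and Npc2 had 2 each. Scap, lower at day 4 in KO cells, had 0. Any link between the boxes and the changes was not tested.
Fasn: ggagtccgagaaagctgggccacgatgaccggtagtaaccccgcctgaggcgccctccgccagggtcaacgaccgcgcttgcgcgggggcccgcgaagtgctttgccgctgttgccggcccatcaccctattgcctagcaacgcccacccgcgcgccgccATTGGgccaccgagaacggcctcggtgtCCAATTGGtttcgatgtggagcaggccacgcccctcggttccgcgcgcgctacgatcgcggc
Abca1: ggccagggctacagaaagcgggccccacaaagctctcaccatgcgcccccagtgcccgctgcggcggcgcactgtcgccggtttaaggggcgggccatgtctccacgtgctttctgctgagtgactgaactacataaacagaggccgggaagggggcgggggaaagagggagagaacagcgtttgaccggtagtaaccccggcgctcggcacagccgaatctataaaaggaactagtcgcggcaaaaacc

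Among the genes of SREBP control, 4 of 5 fell at day 4 in KO cells and 3 of 5 in WT cells. Srebf2, the SREBP that acts mainly on cholesterol genes, had 9.18, 9.04 and 9.19 in KO cells at day 4, against 9.79, 9.68 and 9.69 at day 0, and fell by 0.58 ± 0.08 (adjusted p = 0.000151). In WT cells it had 9.33, 9.50 and 9.37 at day 4, against 9.76, 9.95 and 9.85 at day 0, and fell by 0.46 ± 0.08 (adjusted p = 0.00125). Srebf1, the SREBP that acts mainly on fatty acid genes, had 6.78, 6.64 and 6.70 in KO cells at day 4, against 7.35, 7.44 and 7.54 at day 0. WT cells had 7.10, 7.18 and 6.95 at day 4, against 7.45, 7.59 and 7.49 at day 0. The Srebf1 arrays of KO day 4 lay below all others, and the gene fell by 0.74 ± 0.08 in KO cells and by 0.44 ± 0.08 in WT cells (adjusted p = 3.44e-05 and 0.00211).

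The INSIG genes did not move alike. Insig1, itself switched on by SREBPs, had 8.92, 8.74 and 9.09 in KO cells at day 4, against 9.91, 9.88 and 9.88 at day 0, and 8.74, 9.41 and 9.34 in WT cells at day 4, against 10.15, 10.19 and 10.10 at day 0. It fell by 0.97 ± 0.15 in KO cells and by 0.98 ± 0.15 in WT cells (adjusted p = 0.000255 and 0.000318). Insig2, its close relative in sequence and function, had 8.19, 8.14 and 8.25 in KO cells at day 4, against 7.88, 7.90 and 7.94 at day 0. WT cells had 7.91, 7.23 and 7.18 at day 4, against 7.60, 7.49 and 7.42 at day 0. The Insig2 change did not pass in KO cells (0.28 ± 0.15, adjusted p = 0.187) or in WT cells (-0.07 ± 0.15, adjusted p = 0.824), and the day 4 and day 0 arrays of WT cells overlapped only through array 1. Without that array Insig2 passed in both genotypes and in opposite directions, higher by 0.28 in KO cells (adjusted p = 0.00827) and lower by 0.30 in WT cells (adjusted p = 0.0157).

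Scap, the escort of the SREBPs, had 7.28, 7.52 and 7.41 in KO cells at day 4, against 7.89, 7.96 and 7.96 at day 0, and fell by 0.53 ± 0.08 (adjusted p = 0.00017). In WT cells it had 7.69, 7.77 and 7.78 at day 4, against 7.79, 7.87 and 7.84 at day 0, and the change of -0.08 ± 0.08 did not pass (adjusted p = 0.51). A second Scap probe set with a lower mean level (5.61, against 7.73) gave 0.00 ± 0.10 in KO cells and -0.00 ± 0.10 in WT cells, so the 2 probe sets disagreed in KO cells.

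Fatty acid synthesis and desaturation was lower at day 4 in 6 of 7 genes in KO cells and in 3 of 7 in WT cells. The median change of the 7 was -0.96 in KO cells and -0.26 in WT cells. Fasn, the fatty acid synthase, had levels of 8.84, 8.76 and 8.90 in KO cells at day 4, against 10.24, 10.08 and 10.13 at day 0. In WT cells it had 9.48, 9.93 and 9.92 at day 4, against 10.23, 10.36 and 10.36 at day 0. Fasn fell by 1.31 ± 0.11 in KO cells (2.49-fold, adjusted p = 3.8e-06) and by 0.54 ± 0.11 in WT cells (1.45-fold, adjusted p = 0.00349), and the KO day 4 arrays lay below all others.

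Acly, which makes cytosolic acetyl-CoA from citrate, had 8.85, 8.91 and 8.86 in KO cells at day 4, against 9.93, 9.79 and 9.98 at day 0. WT cells had 9.14, 9.43 and 9.25 at day 4, against 9.82, 10.03 and 10.05 at day 0. Acly fell by 1.03 ± 0.09 in KO cells and by 0.69 ± 0.09 in WT cells (adjusted p = 6.75e-06 and 0.000155), with no overlap between days. Elovl6, which lengthens saturated fatty acids, had 9.60, 9.77 and 9.96 in KO cells at day 4, against 10.74, 10.73 and 10.73 at day 0. WT cells had 10.11, 10.57 and 10.63 at day 4, against 10.69, 10.63 and 10.76 at day 0. Elovl6 fell by 0.96 ± 0.13 in KO cells (adjusted p = 0.000104), and in WT cells, where the days overlapped, the change of -0.26 ± 0.13 did not pass (adjusted p = 0.192).

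Fads2, the first desaturase of polyunsaturated fatty acid synthesis, had 10.11, 10.12 and 10.07 in KO cells at day 4, against 11.12, 11.06 and 11.05 at day 0. WT cells had 10.58, 10.98 and 10.78 at day 4, against 11.28, 11.26 and 11.46 at day 0. It fell by 0.98 ± 0.10 in KO cells and by 0.55 ± 0.10 in WT cells (adjusted p = 1.26e-05 and 0.00111). Acaca, the carboxylase that makes malonyl-CoA, and Fads1, the desaturase that acts after Fads2, fell by 0.46 ± 0.08 and 0.39 ± 0.09 in KO cells (adjusted p = 0.000716 and 0.00573). In WT cells they gave -0.15 ± 0.08 and -0.18 ± 0.09 and did not pass (adjusted p = 0.223 and 0.193). Scd1, which makes oleate from stearate, passed in neither genotype (-0.12 ± 0.10 in KO cells and -0.02 ± 0.10 in WT cells), and its 12 arrays lay between 10.31 and 10.63.

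**Figure D2:**
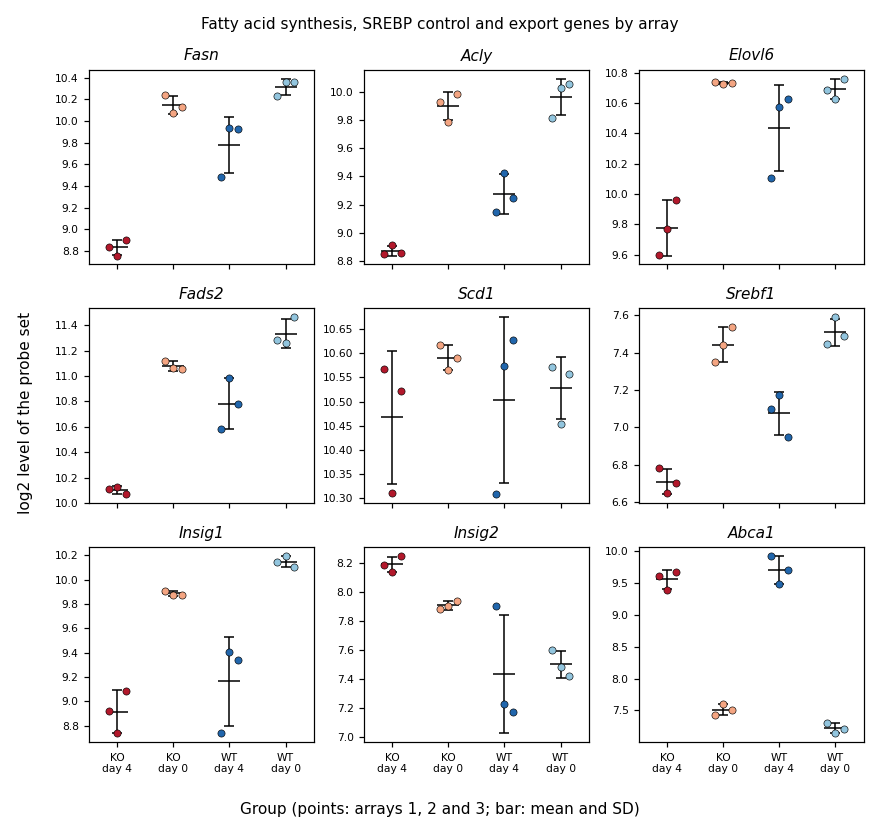
Log2 level of the probe set (y axis, a separate scale for each gene) of 9 genes of fatty acid synthesis, SREBP control and export in the 12 arrays, with KO day 4, KO day 0, WT day 4 and WT day 0 along the x axis; points are arrays 1, 2 and 3 and bars the mean and SD. The KO day 4 points of Fasn (8.76 to 8.90) lie below every other Fasn point, Scd1 overlaps between all groups, and Abca1 lies at 9.40 or higher in all day 4 arrays and at 7.60 or lower in all day 0 arrays.

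Of the 6 export and transport genes measured, 1 fell and 1 rose in KO cells, and 2 fell and 1 rose in WT cells. Of all genes, 16.9% fell and 13.8% rose in KO cells, and 11.7% fell and 11.1% rose in WT cells. The KO counts were near that share, and the rise was Abca1 alone in both genotypes. The median change of the 6 was 0.01 in KO cells and 0.14 in WT cells. Abca1, the transporter that loads cholesterol onto apolipoprotein A-I and a target of the LXR receptors, had levels of 9.61, 9.40 and 9.67 in KO cells at day 4, against 7.43, 7.60 and 7.51 at day 0. In WT cells it had 9.92, 9.49 and 9.71 at day 4, against 7.31, 7.15 and 7.21 at day 0. Abca1 rose by 2.05 ± 0.11 in KO cells (SE, n = 3 per group, 4.13-fold, adjusted p = 1.24e-07) and by 2.49 ± 0.11 in WT cells (5.60-fold, adjusted p = 4.78e-08), the largest change of the 34 genes in each genotype. Abcg1, the other LXR-driven exporter, did not pass (0.00 ± 0.15 in KO cells and 0.11 ± 0.15 in WT cells), nor did Nr1h3, which encodes LXR alpha (0.20 ± 0.22 and 0.59 ± 0.22). Nr1h3 had 5.22, 5.69 and 5.27 in KO cells at day 4, against 5.30, 5.10 and 5.17 at day 0, and 6.15, 5.13 and 5.43 in WT cells at day 4, against 5.07, 5.16 and 4.72 at day 0. Its highest value was again WT day 4 array 1, and without WT day 4 array 2 it passed as higher in WT cells (0.80, adjusted p = 0.0144).

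Stard4, a carrier of cholesterol in the cytosol, fell by 0.46 ± 0.08 in KO cells and by 0.52 ± 0.08 in WT cells (adjusted p = 0.000563 and 0.000338). Its levels were 6.40, 6.28 and 6.26 in KO cells at day 4, against 6.84, 6.64 and 6.85 at day 0, and 6.48, 6.48 and 6.49 in WT cells at day 4, against 7.01, 6.94 and 7.05 at day 0. Npc1 and Npc2 move cholesterol out of lysosomes. Npc1 gave -0.12 ± 0.08 in KO cells and fell by 0.26 ± 0.08 in WT cells (adjusted p = 0.341 and 0.0439), a call lost when any of 8 single arrays was left out: WT day 0 arrays 1, 2 and 3, KO day 0 arrays 1, 2 and 3, or WT day 4 arrays 2 and 3 (highest adjusted p = 0.142). Npc2 passed in neither genotype.

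**Figure D3:**
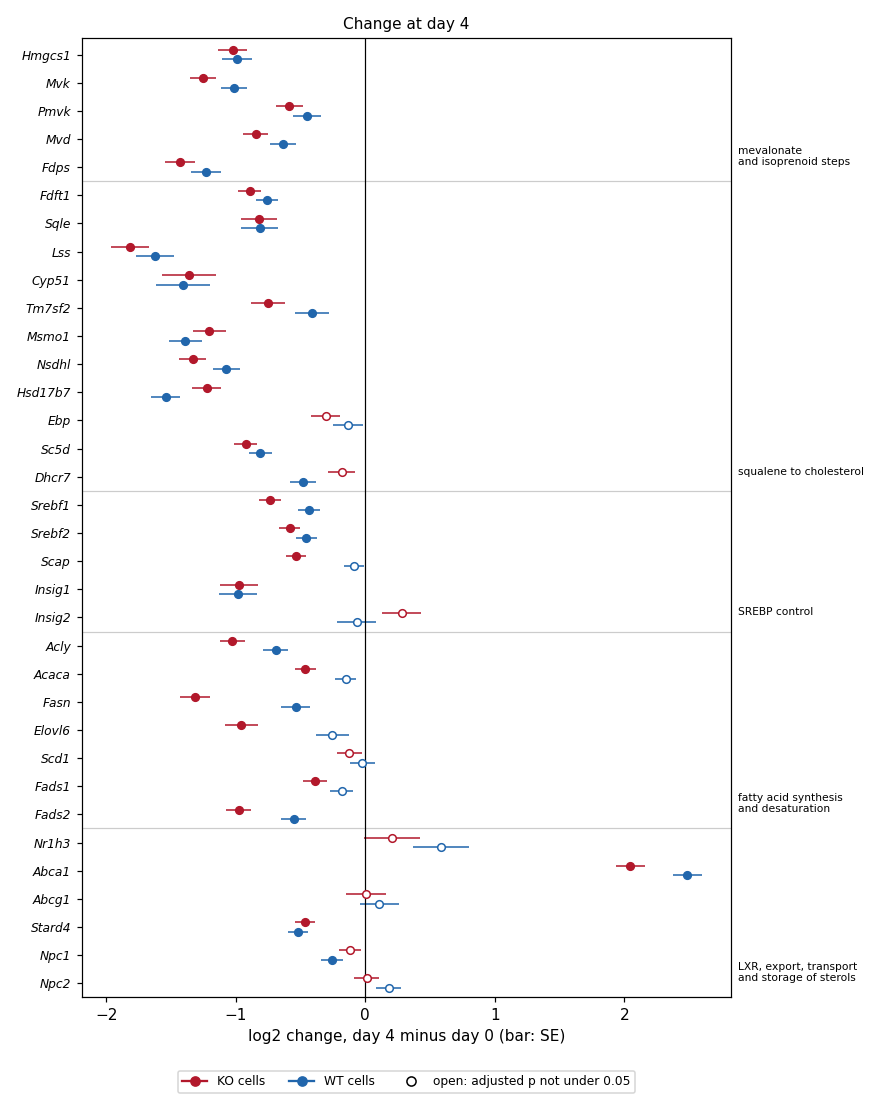
Log2 change, day 4 minus day 0 (x axis), of the 34 genes measured, listed down the page by role, in KO cells (red) and WT cells (blue), with bars of 1 SE (n = 3 arrays per group); open circles did not pass at an adjusted p under 0.05. Nearly all points lie left of 0, from -1.82 for Lss in KO cells, and Abca1 lies apart at 2.05 in KO cells and 2.49 in WT cells.

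Before reprogramming, KO and WT cells differed in few of these genes. At day 0, 2 of 34 were lower in KO cells and 1 was higher, where 3.12% of all genes were lower and 2.48% higher, and the median difference of the 34 was -0.11. Dhcr7 had 7.46, 7.51 and 7.46 in KO cells, against 7.93, 8.03 and 8.09 in WT cells, and was lower by 0.54 on the log2 scale (difference -0.54 ± 0.10, adjusted p = 0.00751). Nsdhl differed by -0.39 ± 0.10 (adjusted p = 0.0495), and that call was lost when any 1 array was left out other than WT day 4 array 1 or 2 (highest adjusted p = 0.165). Npc2 had 10.44, 10.54 and 10.45 in KO cells, against 10.20, 10.01 and 9.98 in WT cells, a difference of 0.41 ± 0.10 (adjusted p = 0.0236) that was lost without WT day 0 array 2 or 3 or without any 1 KO day 0 array (highest adjusted p = 0.108). Abcg1 and Insig2 gave 0.53 ± 0.15 and 0.41 ± 0.15 and did not pass (adjusted p = 0.0673 and 0.175). Without WT day 4 array 1 both passed (adjusted p = 0.0384 and 0.00287), which made 3 genes higher and 3 lower, with Lss as the added lower gene.

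At day 4 more of the genes were lower in KO cells. The count was 15 of 34 lower and 2 higher, where 12.4% of all genes were lower and 8.34% higher, and the median difference was -0.24, against 0.00 over all genes. Leaving out WT day 4 array 1 gave 20 lower and 4 higher, and a fit to the KO day 4 and WT day 4 arrays alone gave 7 lower and 1 higher. Of the 17 genes called, 7 were called under every alternative except the 2-fold minimum: Mvk, Nsdhl, Insig2, Acly, Fasn, Elovl6 and Fads2.

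The fatty acid genes made up 6 of the 15 lower genes, and 6 of the 7 measured were lower in KO cells at day 4. Fasn differed by -0.95 ± 0.11 (SE, n = 3 per group, 1.93-fold, adjusted p = 0.000194), Fads2 by -0.68 ± 0.10 (adjusted p = 0.000542) and Elovl6 by -0.66 ± 0.13 (adjusted p = 0.00335). For these 3 genes, and for Acly, Acaca and Fads1, every KO day 4 array lay below every WT day 4 array, array 1 included. It also held for Mvk, Mvd, Tm7sf2, Nsdhl, Ebp, Srebf1, Srebf2, Scap and Stard4. The share of all genes without such overlap was not computed. Acly, Acaca and Fads1 differed by -0.40, -0.38 and -0.35 (adjusted p = 0.00977, 0.00534 and 0.0168), and the Fads1 call was lost without WT day 4 array 2 or 3 (highest adjusted p = 0.0714). Scd1 did not pass, with a difference of -0.04 ± 0.10.

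Sterol synthesis genes were lower in KO cells at day 4 in 2 of 5 cases up to farnesyl diphosphate and in 4 of 11 from squalene on. Mvk differed by -0.49 ± 0.10 and Mvd by -0.43 ± 0.10 (adjusted p = 0.00472 and 0.00966). Nsdhl differed by -0.64 ± 0.10 (adjusted p = 0.00113), Tm7sf2 by -0.53 ± 0.13 (adjusted p = 0.0137), Lss by -0.48 ± 0.15 (adjusted p = 0.0331) and Ebp by -0.47 ± 0.11 (adjusted p = 0.0114). For Lss the genotypes overlapped at day 4, since WT array 1 (6.57) lay below the highest KO array (6.61), and the call depended on WT day 4 arrays 2 and 3 and on each KO day 4 array, being lost when any 1 of these was left out (highest adjusted p = 0.129). The Tm7sf2 call was lost without WT day 4 array 2 or 3 and the Ebp call without WT day 4 array 3 (highest adjusted p = 0.0586 and 0.0502). Hmgcs1, Fdps, Cyp51, Dhcr7 and Insig1 gave -0.17, -0.30, -0.21, -0.24 and -0.25 and did not pass with all arrays, and without WT day 4 array 1 they passed as lower, at -0.34, -0.46, -0.51, -0.35 and -0.46.

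Of the SREBP control genes, 3 were lower and 1 was higher in KO cells at day 4. Insig2 had 8.19, 8.14 and 8.25 in KO cells, against 7.91, 7.23 and 7.18 in WT cells, and was higher by 0.75 ± 0.15 (1.69-fold, adjusted p = 0.00408). Srebf1 differed by -0.37 ± 0.08 and Scap by -0.34 ± 0.08 (adjusted p = 0.00906 and 0.00732). The Scap difference did not pass when its probe sets were averaged (-0.20, adjusted p = 0.0842). Srebf2 differed by -0.26 ± 0.08 (adjusted p = 0.0395), a call that ended when 1 of 8 arrays was left out (WT day 0 array 3, WT day 4 arrays 2 and 3, KO day 0 arrays 2 and 3, and KO day 4 arrays 1, 2 and 3), with a highest adjusted p of 0.141. Of the export and transport genes, Npc1 was higher in KO cells at day 4 by 0.37 ± 0.08 (adjusted p = 0.00881), with 8.66, 8.66 and 8.40 in KO cells, against 8.25, 8.24 and 8.13 in WT cells. A dim second probe set of Npc1 gave -0.19 ± 0.10, and with the average of both the difference was 0.09 and did not pass (adjusted p = 0.517). Abca1 gave -0.15 ± 0.11 and did not pass (adjusted p = 0.382).

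**Figure D4:**
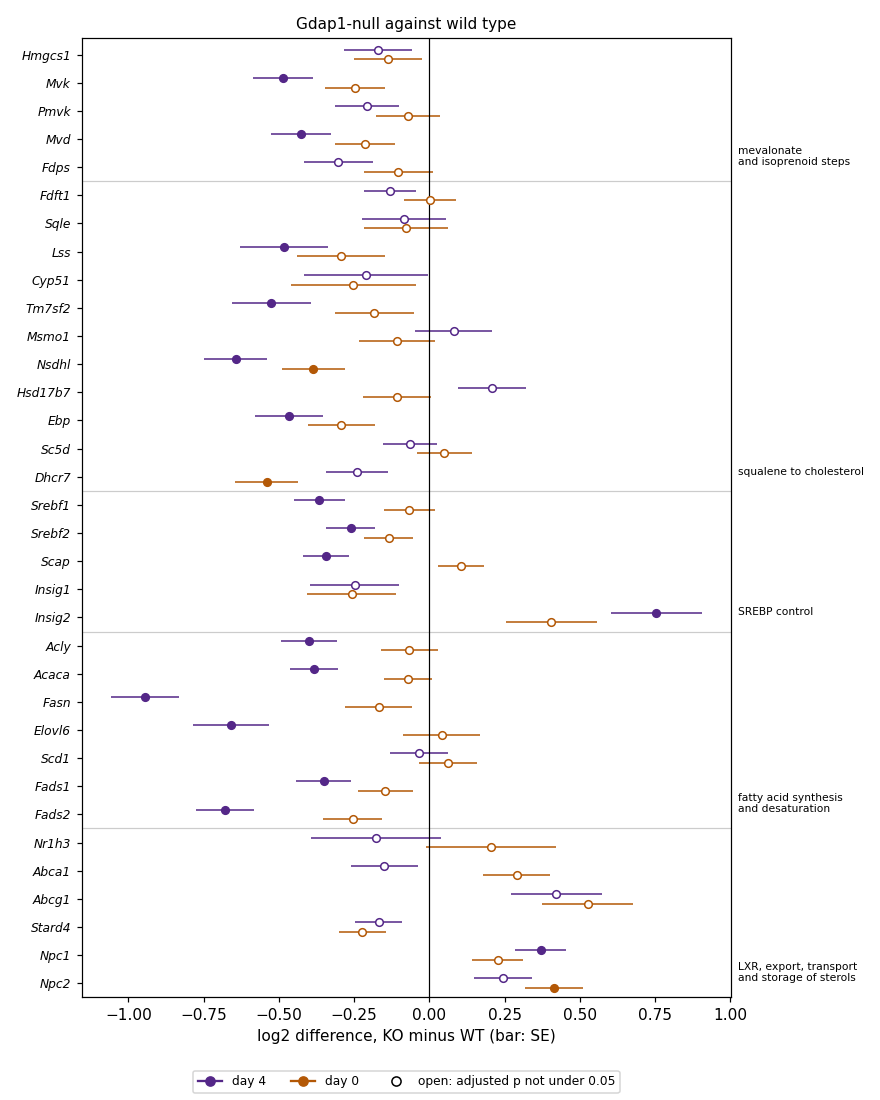
Log2 difference, KO minus WT (x axis), of the 34 genes measured, listed down the page by role, at day 4 (purple) and at day 0 (orange), with bars of 1 SE (n = 3 arrays per group); open circles did not pass at an adjusted p under 0.05. Fasn lies lowest at day 4 (-0.95) and at -0.17 at day 0, and Insig2 lies highest at day 4 (0.75).

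The test of whether the day 4 change itself differed between the genotypes called 2 of 34 genes, both more negative in KO cells, and 0 more positive (limma). At that adjusted threshold 1.81% of all genes were called more negative and 2.15% more positive. At an unadjusted p under 0.05, 8 of the 34 were more negative and 0 more positive. The share of all genes at the unadjusted level was not computed. Those 8 include Abca1, which rose in both genotypes and rose less in KO cells (-0.44 ± 0.16). The change was more negative in KO cells in 26 of the 34 genes and in 11321 of all 22180 genes. The median difference of the 34 was -0.17, against -0.01 over all genes. For Fasn the changes of -1.31 in KO cells and -0.54 in WT cells differed by -0.78 ± 0.16 (adjusted p = 0.0192), and without WT day 0 array 1 or KO day 0 array 1 that difference just missed (-0.73 each, adjusted p = 0.059 and 0.0572). For Scap the difference of -0.45 ± 0.11 (adjusted p = 0.0368) was lost when any 1 array was left out other than WT day 4 array 1 or KO day 4 array 2 (highest adjusted p = 0.0986), and with its probe sets averaged (-0.22, adjusted p = 0.292). Elovl6 gave -0.70 ± 0.18 and missed the threshold (adjusted p = 0.0504). Without WT day 4 array 1 the test called 5 genes as more negative in KO cells, Fasn, Scap, Elovl6 (-0.86), Fads2 (-0.52) and Nsdhl (-0.39), and Insig2 as more positive (0.58, adjusted p = 0.00601).

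Markers of other cells and states were read in the same groups. Macrophage markers were lower in KO cells in 7 of 8 cases at day 4 and in 7 of 8 at day 0, with median differences of -1.75 and -1.72. The mean log2 level of the 8 ran from 5.51 to 5.54 in KO day 4 arrays, 5.35 to 5.52 in KO day 0 arrays, 6.77 to 7.68 in WT day 4 arrays and 6.84 to 6.97 in WT day 0 arrays. The arrays are bulk samples, in which fewer cells of a type and less RNA per cell cannot be told apart. Mitosis markers were lower in KO cells at day 4 in 5 of 7 cases (median -0.46) and at day 0 in 1 of 7 (median -0.19), and they fell at day 4 in 5 of 7 in KO cells and in 5 of 7 in WT cells (median -0.79 and -0.40). Interferon response genes were higher in KO cells in 4 of 9 cases at day 4 (median 1.22) and in 6 of 9 at day 0 (median 2.87). Between the days, 1 of the 9 rose in KO cells (median change -0.16) and 7 of the 9 in WT cells (median change 1.46), and the changes differed by a median of -1.85, with 1 of 9 called more negative and 0 more positive in KO cells. WT day 4 array 1 had a mean centred level of 1.43 for the macrophage markers, against 0.60 and 0.51 in arrays 2 and 3, and of 1.09 for the interferon genes, against -0.44 and -0.99. For the squalene to cholesterol genes its mean was -0.65, against -0.15 and -0.30, and its Insig2 level was the highest of its group. The median SD of a gene in the WT day 4 group was 0.21 over the 34 genes and 0.13 over all genes. Of 8 fat cell markers, 1 was higher and 2 were lower in KO cells at day 4, and 1 was lower at day 0. Fibroblast markers were higher in 2 and lower in 4 of 12 cases in KO cells at day 4, and higher in 3 and lower in 0 at day 0. Between the days, 1 of the 12 rose and 5 fell in KO cells, and 2 rose and 6 fell in WT cells (median change -0.09 and -0.20). Epithelial markers were lower in KO cells in 3 of 7 cases at day 4 and in 2 of 7 at day 0. Endothelial markers were lower in 1 of 7 at day 4, near the share of all genes, and in 2 of 7 at day 0. Of all genes, 12.4% were lower and 8.34% higher in KO cells at day 4, and 3.12% and 2.48% at day 0. Between the days 16.9% fell and 13.8% rose in KO cells, and 11.7% and 11.1% in WT cells. The changes were called more negative in KO cells for 1.81% and more positive for 2.15%. The mean log2 level of 5 hepatocyte markers stayed between 3.54 and 3.90 in all groups. The part of any of these in the sterol and fatty acid results was not tested.

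**Figure D5:**
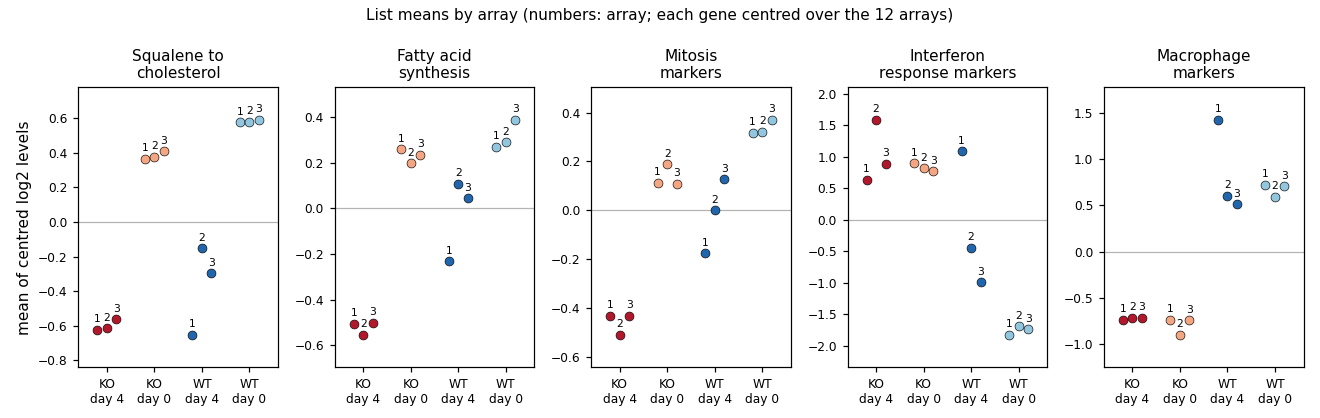
Mean over each list of log2 levels, each gene centred on its mean over the 12 arrays (y axis, a separate scale for each panel), for the squalene to cholesterol genes, the fatty acid genes and markers of mitosis, interferon response and macrophages, with KO day 4, KO day 0, WT day 4 and WT day 0 along the x axis and each point labelled with its array number. WT day 4 array 1 lies lowest of its group for the squalene to cholesterol genes (-0.65) and highest for the interferon genes (1.09) and macrophage markers (1.43).

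A further 64 genes of the same pathways were listed, of which 57 were measured. At day 4, 13 rose and 13 fell in KO cells, and 11 rose and 14 fell in WT cells, with median changes of 0.09 in KO cells and 0.04 in WT cells, against -0.01 over all genes in each. Of all genes, 13.8% rose and 16.9% fell in KO cells, and 11.1% rose and 11.7% fell in WT cells. Tmem97, a sterol-responsive membrane protein that binds NPC1, had 8.29, 8.23 and 8.12 in KO cells at day 4, against 9.43, 9.43 and 9.40 at day 0, and 9.04, 9.30 and 9.24 in WT cells at day 4, against 9.60, 9.58 and 9.74 at day 0. It fell by 1.20 ± 0.08 in KO cells and by 0.45 ± 0.08 in WT cells (adjusted p = 9.02e-07 and 0.00183), and the changes differed by -0.76 ± 0.12 (adjusted p = 0.00556). Aacs, which makes acetoacetyl-CoA in the cytosol, fell by 0.97 in KO cells and by 0.70 in WT cells. Fads3 changed more than Aacs, by -1.13 in KO cells and -1.54 in WT cells, and Lrp8 changed by -0.74 and -1.11. Pltp, the phospholipid transfer protein, rose by 1.55 ± 0.11 in KO cells and by 1.28 ± 0.11 in WT cells (adjusted p = 1.2e-06 and 5.8e-06). Cyp27a1, which makes an oxysterol from cholesterol, rose by 1.40 in KO cells and by 0.70 in WT cells and was higher in KO cells at day 4 by 1.20 ± 0.11 (adjusted p = 5.28e-05). Ch25h, in the same list of oxysterol genes, had mean levels of 7.23 in KO cells at day 4 against 8.13 at day 0. In WT cells it had 8.66, 6.17 and 5.66 at day 4, against 7.13, 6.94 and 7.12. Cyp7b1 had means of 7.89 against 8.53 in KO cells and 6.72 against 6.50 in WT cells. Its day 0 difference of 2.02 was the largest of the 57 genes. At day 4, 14 of the 57 were higher and 12 lower in KO cells, against 8.34% higher and 12.4% lower of all genes, and at day 0, 2 were higher and 1 lower, against 2.48% and 3.12%. The day 4 change differed between the genotypes in 5 of the 57, with 2 more negative and 3 more positive in KO cells, against 1.81% and 2.15% of all genes. Beside Tmem97, the change of Abca2, a lipid transporter of lysosomes, was more negative in KO cells (-0.57 ± 0.12, adjusted p = 0.0191). Abca2 was higher at day 4 in both genotypes and by less in KO cells. Its mean levels were 6.43 against 5.77 at day 0 in KO cells, and 7.11 against 5.88 in WT cells. The difference missed the threshold when WT day 0 array 1, KO day 0 array 1 or KO day 0 array 3 was left out (highest adjusted p = 0.0583). The change was more positive in KO cells for Vldlr, the VLDL receptor (0.94 ± 0.22, adjusted p = 0.0317), and for Cyp27a1 (0.70 ± 0.16, adjusted p = 0.0327). Both calls were lost when any 1 array was left out other than WT day 4 array 1 or KO day 4 array 2 (highest adjusted p = 0.0833 for Vldlr and 0.0841 for Cyp27a1). Acacb, the mitochondrial acetyl-CoA carboxylase, gave 0.68 ± 0.16 (adjusted p = 0.0371), and its call held only with all arrays, without WT day 4 array 1 or without KO day 4 array 1 (highest adjusted p = 0.0884).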

How the data were processed

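Total RNA was labelled with biotin by a whole-transcript protocol and hybridised to 1-colour Affymetrix arrays, per the labels. The values the authors deposited are log2 levels per probe set, between 1.33 and 13.35. Affymetrix Expression Console is the software named, per the submitters' processing notes, with no version. Its background correction, normalization and build are not given here. Array medians were nearly equal (4.68 to 4.72 over all 41345 probe sets), and the values were used as deposited, with no filter.

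Probe sets with 1 gene symbol (23521; 1814 had several and 16010 none) gave 22180 genes, with the brightest probe set on average standing for each gene. One limma model (3.58.1, R 4.3.3) with 4 group means was fitted to all genes and all 12 arrays, with 8 residual and 4.56 prior degrees of freedom. Moderated two-sided tests were adjusted by Benjamini-Hochberg over 22180 genes in each of 5 comparisons, with a threshold of 0.05, and errors are standard errors of the model. The model was also run on simulated data with independent noise for each gene and no shift shared by the genes of an array. That run therefore says nothing on calls that depend on a single array such as WT day 4 array 1. The 39 genes, the other pathway genes and the marker lists were chosen with earlier results of these data known. All measured genes of the 39 are named, and of the other pathway genes up to 8 past the threshold with the smallest p in a comparison were eligible. Fads3, Lrp8, Ch25h and Cyp7b1 were in the same model and are given as levels or changes without their test results.

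Alternative settings left out genes in the lowest 25 percent of levels, quantile-normalized the arrays, subtracted array medians, averaged a gene's probe sets, used a trended robust prior or array weights, fitted the compared groups only, added a replicate block, required a 2-fold change, or left out single arrays in turn. A setting without both WT day 4 array 1 and KO day 4 array 2 was added after seeing the data. Array data hold no counts, so the number of arrays limits the precision.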

Additional observations from a re-analysis of the deposited data

Results flagged for a closer look

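Among the 34 genes measured, the day 4 change differed between the genotypes by a test of the difference itself for 2. Fasn gave -0.78 ± 0.16 (KO minus WT, SE, n = 3 per group, adjusted p = 0.0192), and Scap gave -0.45 ± 0.11 (adjusted p = 0.0368). Over the alternatives other than the 2-fold minimum, the adjusted p ran from 0.00063 to 0.059 for Fasn and from 0.00935 to 0.292 for Scap. Under the 2-fold minimum neither counted, since both differences are under 1 in size.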

How the results depend on the processing

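Of the 72 results past the threshold among the 34 genes and 5 comparisons, 56 stayed past it under every alternative other than the 2-fold minimum, and 0 changed sign: 26 of 26 for KO day 4 against day 0, 22 of 24 for WT day 4 against day 0, 7 of 17 for KO against WT at day 4, 1 of 3 at day 0 and 0 of 2 for the difference of changes. With the 2-fold minimum the genes lower at day 4 numbered 10 in KO cells, against 25, and 7 in WT cells, against 23. The 2-fold minimum left 0 of the 15 lower and 0 of the 2 higher genes for KO against WT at day 4, 0 of the 2 lower and 0 of the 1 higher at day 0, and 0 of the 2 in the difference. Leaving out each array in turn gave 25 to 26 genes lower and 1 to 2 higher at day 4 in KO cells, and 21 to 23 lower and 1 to 2 higher in WT cells. For KO against WT it gave 10 to 20 lower and 2 to 4 higher at day 4, and 1 to 3 lower and 0 to 3 higher at day 0. For the difference of changes it gave 0 to 5 more negative and 0 to 1 more positive. The highest counts for KO against WT at day 4 and for the difference came without WT day 4 array 1. A fit to the compared groups only gave 7 lower and 1 higher at day 4 for KO against WT, 4 lower and 4 higher at day 0, and 2 higher at day 4 in KO cells. Array weights gave 4 lower and 3 higher at day 0 and 4 more negative in the difference, and the trended robust prior gave 2 higher at day 0 and 4 more negative in the difference. Averaged probe sets gave 1 higher at day 4 for KO against WT and 1 more negative in the difference. Subtracted array medians gave 1 lower at day 0. Leaving out KO day 4 array 2 as well as WT day 4 array 1, chosen after seeing the data, gave 4 lower and 3 higher at day 0, 2 higher at day 4 in KO cells, and 4 more negative and 1 more positive in the difference. The causes were not tested. The replicate number as a block gave 14 lower genes for KO against WT at day 4, 1 lower at day 0 and 3 more negative in the difference. The numbers share only a label: deviations of same-numbered arrays correlated between -0.06 and 0.18, over 0.1 in 2 of 18 pairs, and 4 of 18 matched best with their own number.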
